A study of Mus musculus with 4 samples.

Results

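The 42 genes described here encode Wnt ligands, their secreted modulators, the co-receptors, the cytoplasmic machinery around beta-catenin and the TCF/LEF transcription factors of the mouse. They were taken by symbol from a list of 42 names; Frizzled and Lgr receptor genes were not on that list. All 42 were found among the 24548 genes of the deposited count table, and all 42 had the required 40 or more reads summed over the 4 libraries. The lowest sums were 208 reads at Wnt7b and 217 at Apc, so no gene of the list was close to the limit.

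Foxp1, a transcription factor of the forkhead family, was immunoprecipitated from chromatin (ChIP-seq) of basal and of luminal mammary epithelial cells. Mammary ducts have an inner layer of luminal cells, which line the lumen, and around it basal cells, which can contract. Each cell type had 1 Foxp1 ChIP library and 1 input library, which is chromatin sequenced without antibody, so no value below has a replicate. Both cell types came from wild-type female mice aged 10 to 12 weeks of a strain that the series calls FVB/N and the sample labels FBV/N. No transgene, gene deletion or treatment is named for any group, and the sources used here do not say how many animals went into a library.

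Wnt proteins are secreted lipid-modified signals that bind Frizzled receptors together with Lrp5 or Lrp6. Without a Wnt signal, a destruction complex of Axin, APC and kinases marks beta-catenin for degradation; with it, beta-catenin accumulates and joins TCF/LEF factors on target genes. R-spondins raise the response by keeping the ligases Znrf3 and Rnf43 from removing Frizzled receptors. In the mammary gland the pathway is known for its part in bud formation, in branching and in the maintenance of basal stem cells, and Wnt1 was found as an oncogene of mouse mammary tumours.

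Total counts were 3772902 and 3080114 for ChIP and input of basal cells and 3163948 and 4201459 for those of luminal cells. The median count of the 42 genes was 191 in ChIP and 141 in input of basal cells, and 139 and 191 in luminal cells, against 160, 144, 136 and 192 over the 23128 genes tested. Chromatin holds reads at every gene, so marker genes cannot be absent from it. By the rule given with the basal result, 5 of 19 basal markers (26.3%) were called higher in basal ChIP, against 4.24% of all genes, and 0 in luminal ChIP, against 1.5%. Of 19 luminal markers 2 (10.5%) and 5 (26.3%) were called. The difference between the cell types was called higher in basal cells at 7 of the 19 basal markers (36.8%), against 3.72% of all genes, and at 0 of the luminal ones. It was called lower at 0 of the basal markers and at 1 of the luminal ones (Prlr, 5.26%), against 4.16% of all genes. The median log2 difference of the luminal markers was -0.02. None of the 9 fibroblast, 6 endothelial, 8 leukocyte and 6 adipocyte markers was called higher in either ChIP library. Among all genes 4.24% were called higher in basal and 1.5% in luminal ChIP, so lists this short can hold no call. Dcn, Tek and Itgam were called lower in basal ChIP (4.06% of all genes). Plin1 was called lower in luminal ChIP (2.13% of all genes), and Dcn in the difference (4.16%).

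Where on each gene reads were counted is not stated by the sources used, and was examined on the input reads. Among autosomal genes over 30000 bp long, the median of both inputs together was 67 reads in 156 genes with the start of another gene within 500 bp. It was 337 in 68 genes with that start 3000 to 10000 bp away, and 370 in 2387 genes with none within 20000 bp. Closeness of gene ends made no such difference, with 422 reads in 93 genes whose end lay within 500 bp of another gene's end. Reads thus depended on the surroundings of the start and not of the end, so a count was read as the count of a region around the start site, some kilobases wide.

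Because the counts were read as those of regions around start sites, the promoters of called genes are shown where one was listed. RefSeq (GRCm38.p6) listed 39 promoters, each from 250 bases before to 50 after a start site, for 29 of the 42 genes; the others were Wnt5a, Wnt7b, Wnt8a, Wnt10a, Rspo2, Rspo3, Lrp5, Lrp6, Apc, Axin1, Znrf3, Dkk3 and Sfrp1. The letters TGTTTAC and TATTTAT, which forkhead proteins can bind, and CTTTGAT and CTTTGAA, which TCF/LEF proteins can bind, were looked up on both strands; none of the matches overlapped. TGTTTAC was in 1 of the 39 promoters (2.56%) and in 3.65% of all 32851 RefSeq promoters, and TATTTAT in 1 (2.56%) against 5.6%. CTTTGAT was in 2 (5.13%) against 3.73% and CTTTGAA in 1 (2.56%) against 5.14%. No promoter was listed for the called genes Wnt5a, Wnt8a and Wnt10a. For each of the other called genes 1 promoter is given, the one with a match where there was one and otherwise the first listed. Sequences run 5′ to 3′ on the strand of the gene, with matches in capitals.

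Tcf7l2 promoter, chr19:55741560-55741859, plus strand: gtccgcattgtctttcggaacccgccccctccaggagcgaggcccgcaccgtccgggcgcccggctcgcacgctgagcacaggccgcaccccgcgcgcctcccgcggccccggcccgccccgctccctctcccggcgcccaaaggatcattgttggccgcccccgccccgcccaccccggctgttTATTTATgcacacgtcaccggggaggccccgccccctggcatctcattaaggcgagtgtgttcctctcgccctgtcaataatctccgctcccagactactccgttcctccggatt
Axin2 promoter, chr11:108920099-108920398, plus strand: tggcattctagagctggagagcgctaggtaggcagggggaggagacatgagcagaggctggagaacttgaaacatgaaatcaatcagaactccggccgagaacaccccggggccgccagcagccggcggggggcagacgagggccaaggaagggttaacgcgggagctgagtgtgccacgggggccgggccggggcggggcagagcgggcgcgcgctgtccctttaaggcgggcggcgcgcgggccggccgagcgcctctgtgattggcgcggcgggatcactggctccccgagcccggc
Tcf7 promoter, chr11:52282546-52282845, minus strand: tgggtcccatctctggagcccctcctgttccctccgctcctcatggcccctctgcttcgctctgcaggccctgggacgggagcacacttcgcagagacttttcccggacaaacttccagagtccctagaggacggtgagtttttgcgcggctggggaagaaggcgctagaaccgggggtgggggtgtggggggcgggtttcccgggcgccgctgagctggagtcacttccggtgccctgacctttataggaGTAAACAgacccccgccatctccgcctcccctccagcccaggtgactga
Wnt9a promoter, chr11:59306680-59306979, plus strand: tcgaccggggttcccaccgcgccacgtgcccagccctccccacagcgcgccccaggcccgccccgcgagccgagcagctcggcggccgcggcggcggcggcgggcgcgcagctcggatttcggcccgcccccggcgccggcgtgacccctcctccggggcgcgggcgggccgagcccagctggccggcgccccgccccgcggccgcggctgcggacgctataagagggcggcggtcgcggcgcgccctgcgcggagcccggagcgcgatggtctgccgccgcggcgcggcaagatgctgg
Ctnnb1 promoter, chr9:120933150-120933449, plus strand: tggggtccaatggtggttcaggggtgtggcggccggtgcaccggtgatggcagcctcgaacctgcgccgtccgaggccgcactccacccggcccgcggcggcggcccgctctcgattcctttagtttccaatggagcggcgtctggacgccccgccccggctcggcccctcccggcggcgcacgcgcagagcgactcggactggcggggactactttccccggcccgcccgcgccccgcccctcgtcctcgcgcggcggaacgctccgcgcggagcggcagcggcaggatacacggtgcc
Wnt3 promoter, chr11:103773925-103774224, plus strand: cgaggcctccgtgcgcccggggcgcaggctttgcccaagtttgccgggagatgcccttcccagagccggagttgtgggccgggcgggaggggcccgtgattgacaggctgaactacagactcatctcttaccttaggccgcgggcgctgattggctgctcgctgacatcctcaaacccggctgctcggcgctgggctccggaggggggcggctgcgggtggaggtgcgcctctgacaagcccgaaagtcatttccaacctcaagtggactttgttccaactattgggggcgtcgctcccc
Wnt11 promoter, chr7:98834862-98835161, plus strand: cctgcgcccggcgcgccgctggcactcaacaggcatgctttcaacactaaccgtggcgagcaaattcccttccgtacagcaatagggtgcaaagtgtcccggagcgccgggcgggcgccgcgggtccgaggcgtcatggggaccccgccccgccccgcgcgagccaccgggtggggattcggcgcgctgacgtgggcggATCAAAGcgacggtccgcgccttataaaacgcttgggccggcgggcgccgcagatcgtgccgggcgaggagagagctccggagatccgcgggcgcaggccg
Dkk2 promoter, chr3:132085042-132085341, plus strand: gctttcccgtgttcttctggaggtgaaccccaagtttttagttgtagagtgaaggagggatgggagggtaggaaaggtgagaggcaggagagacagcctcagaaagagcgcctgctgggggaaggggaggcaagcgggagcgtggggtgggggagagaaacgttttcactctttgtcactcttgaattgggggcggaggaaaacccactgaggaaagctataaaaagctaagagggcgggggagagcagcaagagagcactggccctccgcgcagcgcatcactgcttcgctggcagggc

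The capitals mark TATTTAT in Tcf7l2, 65 bases before the start site, the reverse complement of TGTTTAC in Tcf7, at 2 bases after it, and the reverse complement of CTTTGAT in Wnt11, 51 bases before it. The other 5 of these promoters held none of the 4 motifs in the window shown. Matches outside the genes shown were CTTTGAT in a Wnt5b promoter and CTTTGAA in the Dkk1 promoter. The share of G and C was 83.3% in the Wnt9a promoter, 76.3% and 64.3% in the 2 Tcf7 promoters and 57.7% in that of Dkk2.

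Enrichment in basal cells was taken as basal Foxp1 ChIP over basal input, which asks where the antibody recovered more DNA than the chromatin itself holds. Counts were scaled between libraries with TMM factors. A gene was called at 1.5-fold or more with a 99% counting interval that excludes 1. Of the 42 genes, 5 were called higher in basal ChIP (11.9%) and 0 lower, against 4.24% higher and 4.06% lower among all genes tested. The 5 were the transcription factor genes Tcf7l2 and Tcf7, the feedback inhibitor gene Axin2, and the ligand genes Wnt5a and Wnt9a. By fold alone the same 5 were past the limit, against 5.51% of all genes higher and 6.94% lower. The median log2 ratio of the 42 was 0.18 and that of all genes -0.01. Of the 42, 29 (69%) lay above 0, against 48.4% of all genes. The scaling set the size of these shares: with total counts 4 of the 42 and 3.01% of all genes were higher, and centred on olfactory receptor genes, which are mostly silent in mammary epithelium, 10 of the 42 and 12.9%. Tcf7l2 and Axin2 were called under each of the 7 alternative settings run. With both inputs summed as background, 2 of the 42 and 3.13% of all genes were higher. Promoter base composition moved with the ratios across the 17432 genes with a listed promoter, which are not independent. Spearman's rho of the share of G and C was 0.30 with the basal ratio and 0.18 with the luminal ratio. It was 0.15 with the difference between cell types and -0.26 with basal over luminal input. The median share was 70.0% in the 29 listed genes of the 42 and 56.3% over those 17432 genes, and its part in the counts was not tested. Intervals cover counting error only. No control antibody library was analysed here, and in chromatin from many cells, more cells with a bound site and more binding per cell cannot be told apart.

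In luminal cells the same ratio called 1 of the 42 higher, against 1.5% of all genes, and 2 lower, against 2.13%. Ctnnb1, the beta-catenin gene, was higher, and the ligand genes Wnt3 and Wnt10a were lower. By fold alone the same 3 were past the limit, against 2.55% and 4.34% of all genes. The luminal median of the 42 was 0.04 on the log2 scale, against -0.00 over all genes. Of the 42, 26 (61.9%) lay above 0, against 49.6% of all genes. With the interval widened by the spread among olfactory receptor genes, none of the 3 was called. No gene of the list was called in the same direction in both cell types. The share of all genes called in both was not counted, so this is a description only. Among all genes, 4.24% were called higher in basal and 1.5% in luminal ChIP, and 4.06% and 2.13% lower.

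**Figure D1:**
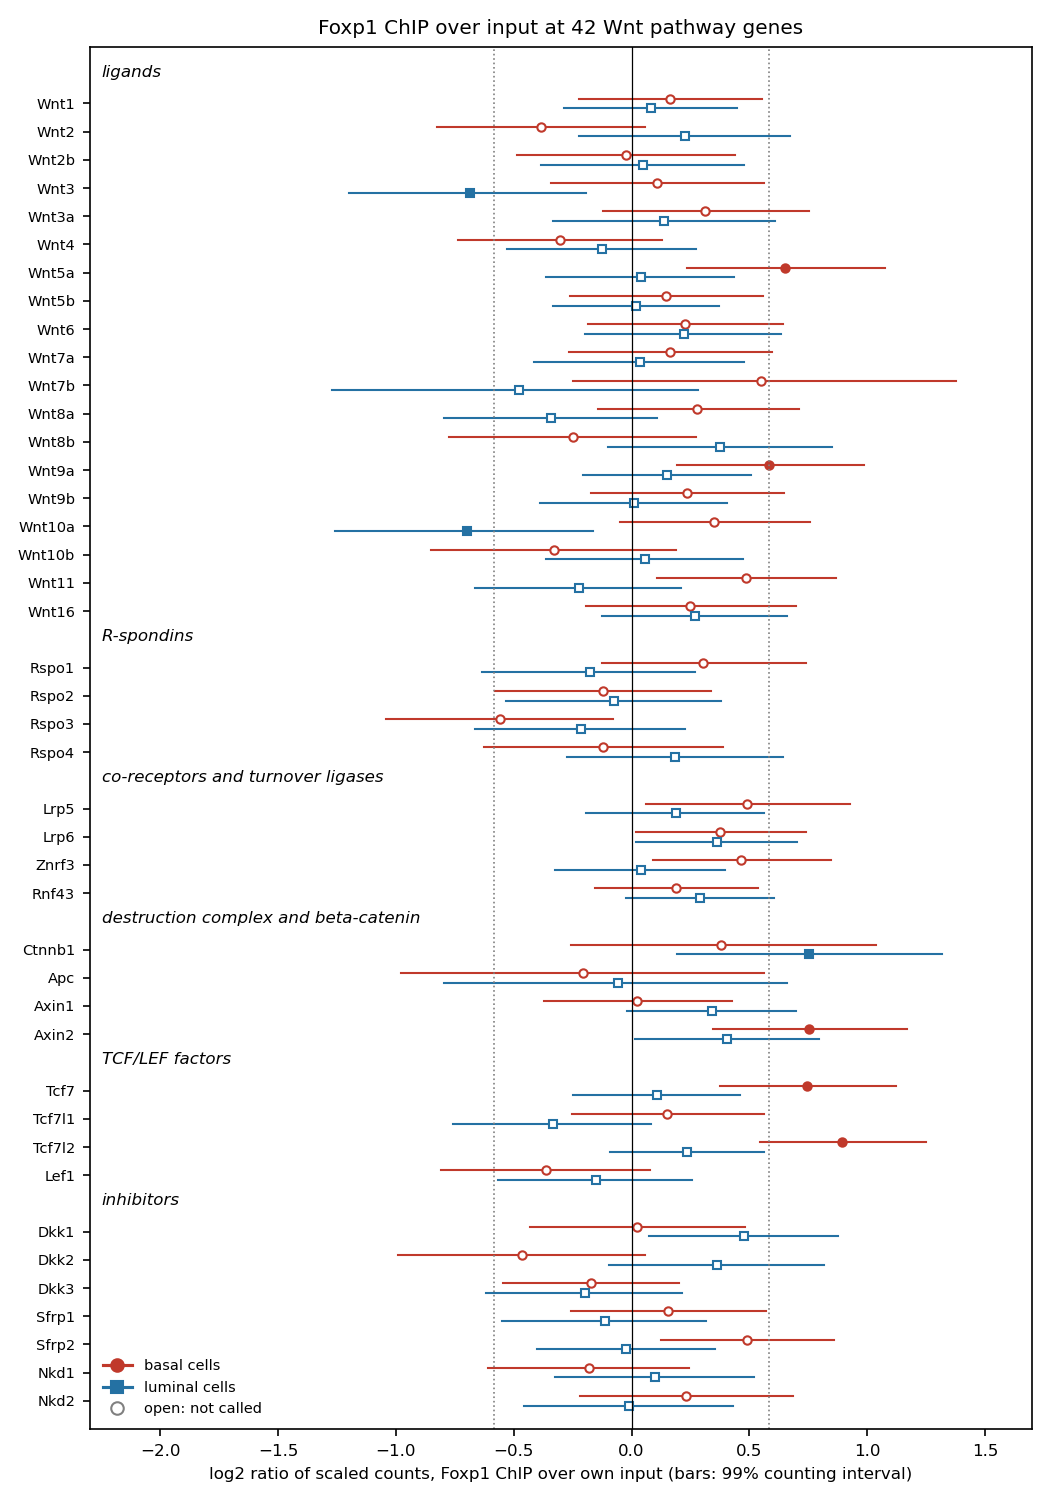
Each row is 1 gene, grouped by role; points give the log2 ratio of scaled counts, Foxp1 ChIP over own input, in basal (circles) and luminal cells (squares), bars the 99% counting interval, and dotted lines 1.5-fold. Filled points are called: 5 basal points lie to the right of the line, 1 luminal point to the right and 2 to the left.

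TCF/LEF factors are the DNA-binding partners of beta-catenin, and Tcf7l2 held the highest basal ratio of the list. Tcf7l2 (Entrez gene 21416, chromosome 19, 55741797 to 55933659, GRCm38) was covered by 368 reads in basal ChIP against 168 in its input, and by 249 in luminal ChIP against 288. After scaling, the basal ChIP value was the highest of the 4, at 99.8 CPM against 53.7, 79.5 and 67.6 in the same order. The basal ratio was 1.86-fold (99% interval 1.46 to 2.38), higher than in 98.8% of genes tested, and the luminal ratio was 1.18-fold (0.937 to 1.48). This gene encodes TCF4, the main partner of beta-catenin in many epithelia.

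Tcf7 (Entrez gene 21414, chromosome 11, 52246527 to 52283383) encodes TCF1, best known from T cells. Basal ChIP held 304 reads and its input 154, 1.68-fold (1.3 to 2.18). In luminal cells it had 205 and 259 reads, 1.08-fold (0.842 to 1.38). Tcf7l1 encodes TCF3, which acts mostly as a repressor, and stood at log2 0.15 in basal and -0.33 in luminal cells, without being called. Lef1, the factor of the early mammary bud, stood at -0.36 and -0.15. The family was thus split in basal cells, with 2 of 4 called higher and Lef1 below 0.

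Among the genes around beta-catenin, Axin2 was called higher in basal ChIP. Axin2 (Entrez gene 12006, chromosome 11, 108917828 to 108950783) is a scaffold of the destruction complex and a common readout of Wnt signalling. Basal ChIP held 252 reads there and its input 127, 1.68-fold (1.27 to 2.25). In luminal cells it had 186 and 191 reads, 1.33-fold (1.01 to 1.74), an interval above 1 at a fold below the limit. Its homologue Axin1, which is expressed in most cells, stood at log2 0.03 in basal and 0.34 in luminal cells.

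Ctnnb1 (Entrez gene 12387, chromosome 9, 120933400 to 120960507) was covered by 104 reads in luminal ChIP and by 84 in its input, 1.68-fold (1.14 to 2.49). In basal cells it had 89 and 58 reads, 1.3-fold (0.836 to 2.06). Its counts were low for the list, and the nearest other start site, that of the gene 4930593C16Rik, lay 2598 bp away. Apc, the tumour suppressor that holds the complex together, also had few reads, 51 over 50 in basal and 48 over 68 in luminal cells, and log2 ratios of -0.21 and -0.06 with intervals that reach from -0.98 to 0.56 and from -0.80 to 0.66.

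Co-receptor and ligase genes all lay above 0 in both cell types, with none called. Among all genes, 48.4% lay above 0 in basal and 49.6% in luminal cells. Lrp6 had 280 reads over 183 in basal cells and 239 over 253 in luminal cells, log2 0.38 (0.02 to 0.74) and 0.36 (0.02 to 0.70). Both intervals exclude 0 and both folds were under 1.5. Lrp5 stood at 0.49 (0.06 to 0.93) in basal and 0.19 in luminal cells. Znrf3, a ligase that removes Frizzled receptors from the surface, stood at 0.46 (0.09 to 0.85) in basal and 0.04 in luminal cells. The related ligase gene Rnf43 stood at 0.19 and 0.29.

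The 19 ligand genes had a median log2 ratio of 0.23 in basal and 0.04 in luminal cells. Wnt5a (Entrez gene 22418, chromosome 14, 28504543 to 28527448), a ligand of the pathway branch that does not use beta-catenin, was covered by 233 reads over 126 of input in basal cells and by 160 over 212 in luminal cells. The basal ratio was 1.57-fold (1.18 to 2.11) and the luminal ratio 1.03-fold (0.779 to 1.35). Wnt9a (Entrez gene 216795, chromosome 11, 59306849 to 59333552) was covered by 251 over 142 and 204 over 250. Its basal ratio of 1.5-fold (1.14 to 1.98) lay at the limit itself, and the luminal ratio was 1.11-fold (0.866 to 1.42). It was no longer called with total counts, with a filter of 100 summed counts, with both inputs summed or with a wider interval.

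Wnt10a and Wnt3 had few reads in luminal ChIP and were called lower there. They were 2 of the 42 genes (4.76%), against 2.13% of all genes. Neither was called with the interval widened by the spread among olfactory receptor genes. Wnt10a (Entrez gene 22409, chromosome 1, 74792019 to 74804176) was covered by 221 reads over 147 of input in basal cells and by 71 over 157 in luminal cells. The luminal ratio was 0.615-fold (0.418 to 0.892) and the basal ratio 1.28-fold (0.967 to 1.69). Wnt3 (Entrez gene 22415, chromosome 11, 103774175 to 103818021) was covered by 160 over 126 and 84 over 184. Its luminal ratio was 0.621-fold (0.436 to 0.874), its basal ratio 1.08-fold (0.788 to 1.48). Both basal ratios lay above 1 and both luminal ratios below it.

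**Figure D2:**
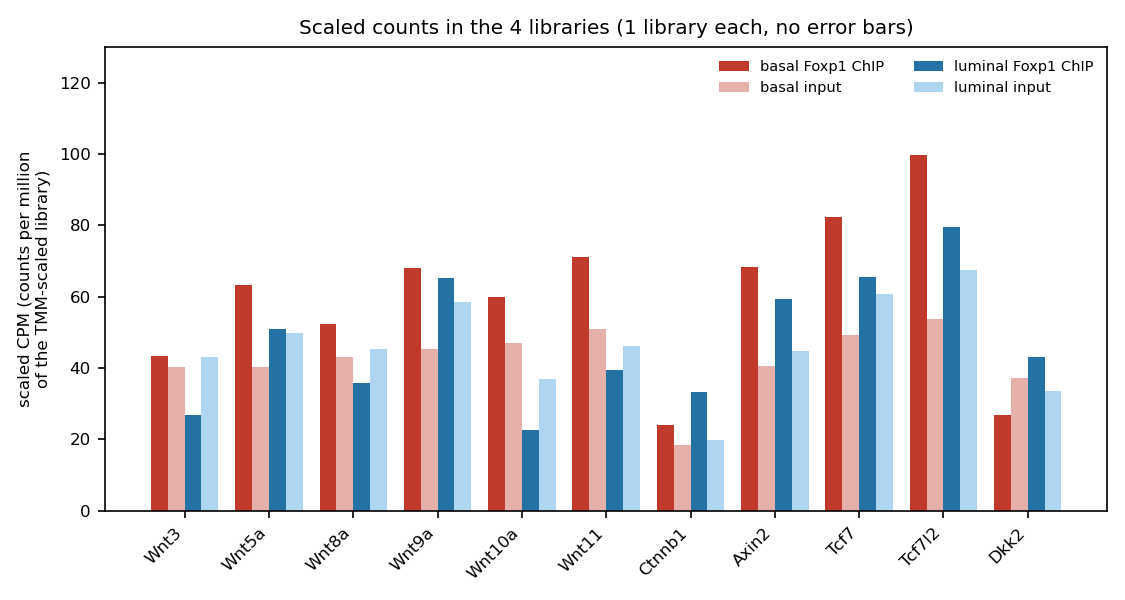
Bars give scaled CPM (counts relative to the TMM-scaled library size) in each of the 4 libraries (1 library each, so no error bars) for the 11 genes called in basal cells, luminal cells or the difference between them. Basal ChIP is the tallest of the 4 bars at each gene except Ctnnb1 and Dkk2. Its highest values are at Tcf7l2 (99.8), Tcf7 (82.5) and Wnt11 (71.1). The lowest luminal ChIP bars are at Wnt10a (22.7) and Wnt3 (26.8).

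The remaining ligand genes were not called in either cell type. Wnt11, a ligand known from the branching tips of the kidney, had 262 reads over 159 in basal cells, 1.4-fold (1.08 to 1.83), and 124 over 197 in luminal cells, 0.857-fold (0.631 to 1.16). Wnt8a had 193 over 135 and 112 over 193 reads, log2 0.28 and -0.34. Wnt7b had the fewest reads of the ligands, 62 over 36 and 38 over 72, and log2 ratios of 0.55 (-0.25 to 1.38) and -0.48 (-1.27 to 0.28). All 3 thus lay above 0 in basal and below 0 in luminal cells.

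The reverse order was seen at Wnt2, a ligand known from lung development, with 140 reads over 155 in basal and 134 over 156 in luminal cells, log2 -0.38 and 0.23. Wnt8b had 106 over 107 and 125 over 131 reads, log2 -0.25 and 0.38. Wnt10b, a ligand of the embryonic mammary bud, stood at -0.33 and 0.06, and Wnt2b at -0.02 and 0.05. None of these 4 passed.

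Ratios above 0 in both cell types were found at 9 of the 19 ligand genes. The share of all genes above 0 in both was not counted. Wnt1 stood at log2 0.16 in basal and 0.08 in luminal cells, Wnt3a at 0.31 and 0.14, and Wnt5b at 0.14 and 0.02. Wnt6 stood at 0.23 and 0.22, Wnt7a at 0.16 and 0.04, and Wnt9b at 0.23 and 0.01. Wnt16 stood at 0.25 and 0.27. The other two are Wnt5a and Wnt9a, described above. Wnt4, which luminal cells release in response to progesterone, lay below 0 in both, with 151 reads over 158 and 151 over 224, log2 -0.30 and -0.12.

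Ligand genes form 4 neighbouring pairs on the mouse chromosomes, and the members of a pair did not always share a value. A gap of 6696 bp separates the genes Wnt6 and Wnt10a on chromosome 1. The distance between their start sites was not computed, as no Wnt10a promoter was listed. In luminal cells Wnt6 stood at log2 0.22 and Wnt10a at -0.70, a difference of 0.92 (99% counting interval 0.25 to 1.59), while in basal cells they stood at 0.23 and 0.35, a difference of -0.12 (-0.69 to 0.44). The listed start sites of Wnt3 and Wnt9b lie 24354 bp apart on chromosome 11, on opposite strands. The genes overlap, as the annotated 5′ end of Wnt9b (103775272) lies within Wnt3, near the annotated start of Wnt3 (103774175). The luminal ratios of Wnt3 and Wnt9b were -0.69 and 0.01, a difference of -0.70 (-1.32 to -0.07), and their basal ratios 0.11 and 0.23. The low luminal values were thus seen at 1 gene of each of these pairs. Between Wnt1 and Wnt10b (chromosome 15, 11707 bp between start sites) the difference was 0.49 (-0.14 to 1.13) in basal and 0.03 (-0.52 to 0.57) in luminal cells. Between Wnt3a and Wnt9a (chromosome 11, 16179 bp) it was -0.27 (-0.85 to 0.31) and -0.01 (-0.59 to 0.57).

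R-spondin genes were not called in either cell type. Of the 4, 3 lay below 0 in basal cells, where 48.4% of all genes lay above 0. Rspo3 had the lowest basal ratio of the 42, with 112 ChIP and 140 input reads, 0.679-fold (0.485 to 0.948), and 119 over 188 in luminal cells, 0.861-fold (0.63 to 1.17). With total counts it stood at log2 -0.61 in basal cells and was called lower. Rspo2 stood at log2 -0.12 and -0.07, and Rspo4 at -0.12 and 0.19. Rspo1, which supports mammary stem cells in culture, was the one above 0 in basal cells, at 0.30, with -0.18 in luminal cells.

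Inhibitor genes were not called in either cell type. Dkk proteins block Lrp5 and Lrp6. Dkk1 had 152 reads over 127 in basal cells, 1.02-fold (0.741 to 1.4), and 181 over 177 in luminal cells, 1.39-fold (1.05 to 1.84). Dkk2 had 99 over 116 and 135 over 143, 0.724-fold (0.503 to 1.04) and 1.28-fold (0.936 to 1.76). Dkk3, a divergent member of that family, stood at log2 -0.17 and -0.20. Both Dkk1 and Dkk2 thus had the higher ratio in luminal cells.

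Sfrp proteins bind Wnt ligands outside the cell. Sfrp2 had 283 reads over 171 in basal cells, log2 0.49 (0.13 to 0.86), and 173 over 239 in luminal cells, -0.02 (-0.40 to 0.35). Sfrp1 stood at 0.15 and -0.11. The Naked genes encode inhibitors of Dishevelled inside the cell. Nkd1 stood at -0.18 and 0.10, and Nkd2 at 0.23 and -0.01.

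The difference between the cell types was taken as the basal ratio over the luminal ratio, which uses the same 4 libraries as both ratios above and is no separate evidence. Of the 42 genes, 7 were called higher in basal cells (16.7%), against 3.72% of all genes, and 1 was called lower, against 4.16%. The 7 were Wnt3, Wnt5a, Wnt8a, Wnt10a, Wnt11, Tcf7 and Tcf7l2, and the 1 was Dkk2. By fold alone 8 and 3 were past the limit, against 7.0% and 8.41% of all genes. The median log2 difference was 0.10 over the 42 and 0.00 over all genes. Of the 42, 25 (59.5%) lay above 0, against 50.4% of all genes. Centred on olfactory receptor genes, 11 were higher and 1 lower, against 8.68% and 1.79% of all genes. With both inputs summed, 3 were higher and 2 lower, against 4.05% and 3.98% of all genes.

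**Figure D3:**
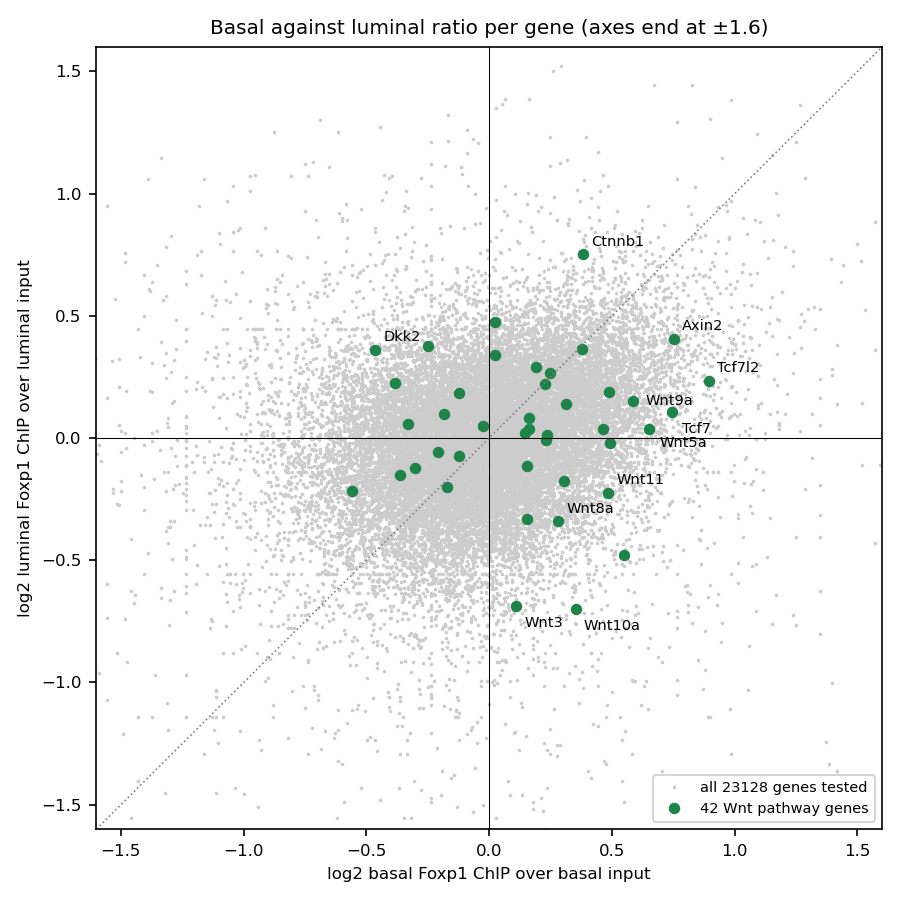
Each point is a gene, with the log2 ratio of Foxp1 ChIP over own input in basal cells on the x axis and in luminal cells on the y axis; green points are the 42 Wnt pathway genes, and 146 of all genes lie outside the axes. Tcf7l2, Tcf7, Wnt5a and Wnt9a lie to the right near 0 on the y axis, and Wnt3 and Wnt10a lie lowest of the 42, at -0.69 and -0.70 on the y axis.

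Wnt10a had the largest difference of the list, 2.06-fold (99% interval 1.3 to 3.26). It was called under each of the 7 alternative settings run, with log2 1.40 when both inputs were summed. Wnt3 followed among the called genes at 1.73-fold (1.09 to 2.73), Wnt11 at 1.63-fold (1.1 to 2.41) and Wnt8a at 1.53-fold (1.01 to 2.33). Wnt8a was no longer called with total counts (log2 0.59), with both inputs summed (0.55) or with the wider interval. Wnt7b had a difference of 2.01-fold, and its interval from 0.957 to 4.23 held 1. Wnt3 (log2 0.69) and Wnt11 (0.84) were also called with both inputs summed.

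Tcf7l2 differed by 1.58-fold (1.14 to 2.19), Tcf7 by 1.55-fold (1.09 to 2.2) and Wnt5a by 1.52-fold (1.03 to 2.26). For these 3 genes basal input over luminal input stood at log2 -0.33 (-0.70 to 0.03) for Tcf7l2, -0.30 (-0.69 to 0.08) for Tcf7 and -0.30 (-0.74 to 0.12) for Wnt5a, and none was called between inputs. With both inputs summed as one background, which leaves basal over luminal ChIP, the differences were 0.33, 0.33 and 0.31 and none of the 3 was called. In that setting Tcf7l2 and Axin2 were still called higher in basal ChIP, while Tcf7 (0.56), Wnt5a (0.47) and Wnt9a (0.36) were not. The basal input of Wnt9a stood at -0.37 against luminal input.

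Dkk2 was the one gene called for higher enrichment in luminal cells, its basal ratio being 0.564 times its luminal ratio (0.353 to 0.901). Wnt8b at 0.647 (0.402 to 1.04) and Wnt2 at 0.656 (0.428 to 1) were past the fold without being called. At Wnt2 basal input was log2 0.44 above luminal input. When the interval was widened by the spread among olfactory receptor genes, Wnt10a alone of the 8 genes was called.

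**Figure D4:**
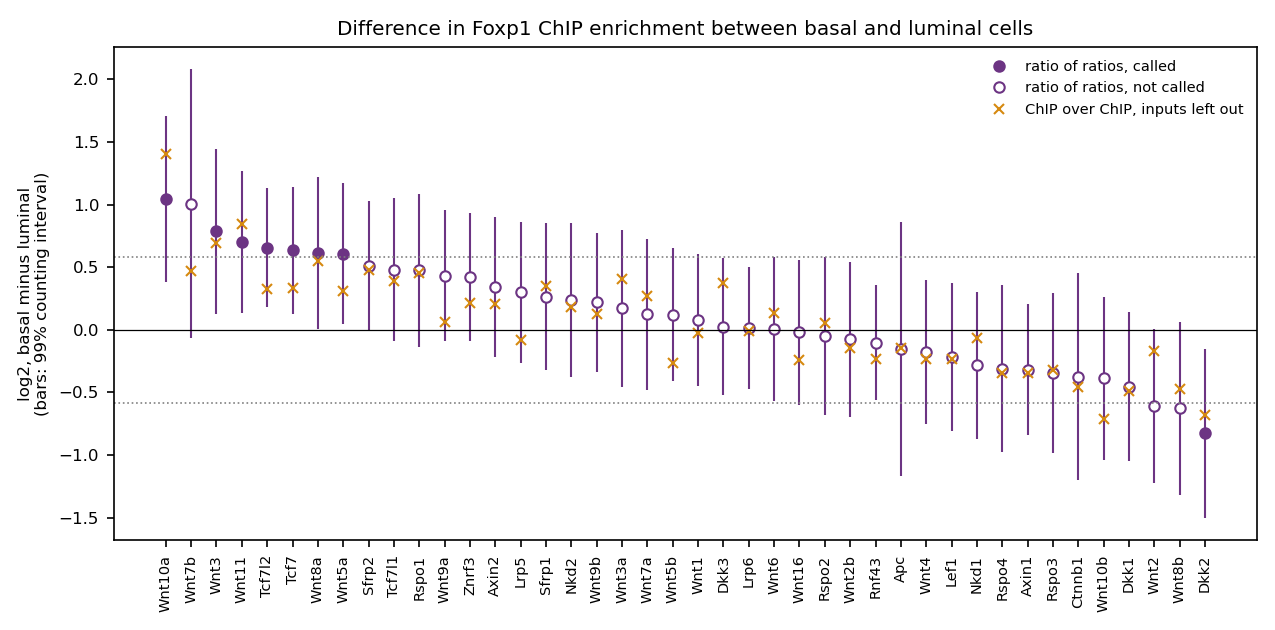
Genes are ordered by the log2 difference of enrichment, basal minus luminal, with its 99% counting interval (circles and bars; filled where called); crosses give basal ChIP over luminal ChIP with the inputs left out, and dotted lines mark 1.5-fold. At Wnt10a the cross (1.40) lies above the circle (1.04), and at Tcf7l2 (0.33 against 0.66) and Tcf7 (0.33 against 0.63) it lies below.

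Between the inputs, which hold no antibody signal, 0 of the 42 genes were called higher in basal input and 0 lower, against 0.709% and 0.463% of all genes, and none was past 1.5-fold, against 1.82% and 1.76%. The values ran from log2 -0.55 at Wnt7b to 0.44 at Wnt2, with a median of -0.05.

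Other genes of the pathway were counted in the same way; of 81 symbols listed, 79 were tested, and the other two, Tle5 and Troy, are further names of Aes and Tnfrsf19, which are among the 79. Of the 79, 13 were called higher in basal ChIP (16.5%, against 4.24% of all genes) and 3 lower (3.8%, against 4.06%). In luminal ChIP 4 were higher (5.06%, against 1.5%) and 1 lower (1.27%, against 2.13%). The difference was called higher in basal cells at 6 (7.59%, against 3.72%) and lower at 3 (3.8%, against 4.16%).

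Among 17 Frizzled, Lgr and other receptors, Fzd7 (log2 0.77) and Fzd2 (0.61) were called higher in basal cells, and Fzd8 (0.74) and Fzd3 (0.60) in luminal cells. The difference was called at Fzd2 (1.05), Fzd7 (0.67) and Lgr6 (0.63). No gene of Wnt secretion (Porcn, Wls and Notum) was called. Of 13 other inhibitors, Kremen1 (0.60), which acts together with Dkk proteins, and Tmem64 (0.60) were higher in basal cells, and Igfbp4 differed by -0.59.

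Among 14 Dishevelled and destruction complex genes, the casein kinase gene Csnk1e (0.85) and the tankyrase gene Tnks (0.77), whose enzyme turns over Axin, were higher in basal cells. Gsk3b, the kinase that phosphorylates beta-catenin, was lower in basal cells at -1.37 on 25 reads over 55, with 43 over 59 in luminal cells. Of 16 nuclear cofactors tested, the corepressor gene Ctbp2 was higher in both cell types (1.06 and 0.67), and Tle3 (0.63) and Ctnnbip1 (0.64), whose product keeps beta-catenin from TCF factors, in basal cells. Tle2 was lower in both, at -0.70 and -0.70. Of 17 known beta-catenin targets, Myc (1.0), Jun (0.81), Vegfa (0.76) and Fosl1 (0.67) were higher in basal cells, and Jun (0.95) in luminal cells; Cdx1 was lower in basal cells (-0.77). Ccnd1, at 0.46 and 0.55, and Procr, a marker of mammary stem cells, at -0.05 and -0.01, were not called.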

How the data were processed

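The deposited values were raw read counts per gene, not normalized. Reads were counted by the authors with featureCounts on build mm10, per the submitters' processing notes; the aligner, the treatment of duplicate reads and the region counted per gene are not given in these sources. Per the labels' protocols, libraries came from a commercial ChIP kit and were read as single ends of 75 to 85 bp. The 4 files of single samples held the same counts as the table for 24548 of 24548 genes.

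Counts were scaled with TMM factors (edgeR 4.0.16, R 4.3.3) over the 23128 genes with at least 40 summed counts. Ratios carry exact Clopper-Pearson intervals at 99%, and ratios of ratios an interval from the 4 counts plus 0.5 (Python 3.11.15, scipy 1.17.1). With 1 library per group no count model and no p-value was possible. The rule was tested on simulated data, which were drawn with counting error only. Spread between libraries beyond counting error was not simulated. PCR copies are not independent molecules, so intervals cover counting error only.

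The members, lists, motifs and the rule for named genes (each gene named; full values for called genes and the 3 highest and 3 lowest per comparison) were chosen with earlier results of these data known. Alternatives were total counts, DESeq2 1.42.0 size factors, centring on 1108 olfactory receptor genes, other count filters, summed inputs, and an interval widened by the square root of the variance among receptor genes over that of counting (a variance ratio of 2.28 in basal cells, 2.12 in luminal cells and 2.28 for the difference). Promoter base composition was listed for 29 of the 42 genes, under 80%, so a check over the list was void, and it is given as a description. Sequences and positions came from RefSeq tables of GRCm38.p6, the assembly of mm10.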

Additional observations from a re-analysis of the deposited data

Results flagged for a closer look

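The ratio of ratios was called at 8 of the 42 genes, at 1.5-fold or more with a 99% counting interval that excludes 1. Of these, 7 were higher and 1 lower in basal cells, against 3.72% and 4.16% of all genes. With 1 library per group this was not tested across animals. With the wider interval only Wnt10a was still called, and with both inputs summed Tcf7l2, Tcf7, Wnt5a and Wnt8a were not. On the log2 scale, basal minus luminal, the differences were 1.04 at Wnt10a, 0.79 at Wnt3, 0.70 at Wnt11, 0.66 at Tcf7l2, 0.63 at Tcf7, 0.62 at Wnt8a, 0.61 at Wnt5a and -0.83 at Dkk2. At Wnt3 and Wnt10a the reads in luminal ChIP were low (84 and 71). Tcf7l2 and Tcf7 had the most reads of the list in basal ChIP (368 and 304). Wnt5a had 233 there, against a median of 191 over the 42. Basal over luminal input stood at log2 -0.33 at Tcf7l2, -0.30 at Tcf7 and -0.30 at Wnt5a. At Wnt3, Wnt8a, Wnt10a, Wnt11 and Dkk2 the estimated ratios lay on opposite sides of 1 in the 2 cell types with TMM scaling, and at none of these genes did both intervals exclude 1.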

How the results depend on the processing

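The 42 genes' ratios and differences, and the counts called, were recomputed under 7 settings; the counts between inputs had no summed-input setting, the medians no wider interval, and the other pathway genes, markers and neighbouring pairs were not recomputed. With olfactory receptor genes as centre, 10 genes were called higher in basal ChIP (against 12.9% of all genes), 11 were higher (8.68%) and 1 lower (1.79%) in the difference, and 2 (Wnt5b and Lrp5) were lower in basal input (3.89%). This centre moved the median of all genes to 0.20 in basal, 0.07 in luminal and -0.21 between inputs. With both inputs summed, 2 were higher in basal ChIP (3.13%), and 3 higher (4.05%) and 2 lower (3.98%; Dkk2 and Wnt10b) in the difference. With total counts, 1 (Rspo3) was lower in basal ChIP (5.67%), and 6 were higher (3.32%; without Wnt8a) and 2 lower (4.7%; Wnt2 and Dkk2) in the difference. With the wider interval, 0 were higher (1.13%) and 0 lower (0.549%) in luminal ChIP, and 1 was higher (0.774%) and 0 lower (0.497%) in the difference. The share of higher calls among all calls in basal ChIP was 51.1% in the main setting; total counts gave 34.7% and the receptor centre 92.7%. In luminal ChIP these were 41.4%, 30.7% and 65.5%, and for the difference 47.2%, 41.4% and 82.9%. DESeq2 size factors and no count filter changed no call on the 42 genes in basal cells, luminal cells or the difference. The median of the 42 ran from 0.12 to 0.39 in basal cells, from 0.01 to 0.11 in luminal cells, from 0.06 to 0.24 in the difference and from -0.26 to -0.04 between inputs, with the highest of the first 3 and the lowest of the last under the receptor centre. No called value changed sign. No paired analysis was possible because each group had 1 library, and none could be left out. Depth limits Wnt7b, Apc and Ctnnb1 most.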
